A study of Homo sapiens with 4 samples.

Results

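Axon guidance molecules are secreted or membrane-bound ligands and their receptors, and 66 such genes in 10 families were examined in the AT/RT-MYC lines BT-16 and CHLA-266, untreated and treated with chemotherapy. The genes were chosen by family name among the 18449 gene symbols of the count table: 9 EphA receptors, 5 EphB receptors, 7 plexins, 2 neuropilins, 4 Robo receptors, 4 UNC5 receptors, and DCC on the receptor side (32 genes), and 7 ephrins, 20 semaphorins, 3 Slits, and 4 netrins on the ligand side (34 genes). The study asked how gene expression differs between AT/RT cells that survive chemotherapy and untreated cells. Both are established lines of the atypical teratoid/rhabdoid tumor (AT/RT), a malignant brain tumor of early childhood, and both belong to the subtype with high *MYC* expression. Each line was sequenced untreated and after 1 µM doxorubicin, 5 µM etoposide, and 1 µM vincristine (unit as in the methods) were given on consecutive days and the surviving cells had regrown. Both conditions shared the serum-containing medium, no other allele or agent was named, and all libraries carried the same batch label. Each line gave 1 library per condition, so each condition held 2 libraries, which were different cell lines and not separate cultures of the same line. Genes on the sex chromosomes were removed by the authors, so *EFNB1*, *PLXNA3*, and *PLXNB3* were not analysed here.

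In the developing nervous system, growth cones of axons read these molecules as signals of attraction or repulsion. Ephrins are bound to the cell surface and signal through Eph receptor tyrosine kinases on the neighboring cell, semaphorins signal through plexins with neuropilins as co-receptors of the secreted class, Slits signal through Robo receptors, and netrins signal through DCC and UNC5 receptors. Outside the nervous system, the same molecules take part in cell adhesion, migration, and vessel growth, and many are expressed in tumors.

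Total counts were between 49849258 and 75087194 per library and were lower after treatment in both lines, while more genes were detected (17114 and 17815 after treatment, 15464 and 16079 before). The members together took 0.40% to 0.50% of all counts in each library. Olfactory receptor genes, which belong to sensory neurons of the nose, served as a reference for reads in genes that these cells are not known to use: of 380 such genes, 31.8% and 23.7% had at least 1 count in untreated BT-16 and CHLA-266 cells and 77.1% and 55.0% after treatment. Their 95th percentile rose from 4.11 to 26.3 counts per kilobase of exon in BT-16 and from 3.81 to 21.2 in CHLA-266. *SMARCB1*, whose protein is lost in most AT/RT, was not at 0 in its RNA (1394 and 981 counts in BT-16 without and with treatment, 1313 and 827 in CHLA-266). *MYC* had 14275 and 6804 counts within BT-16 and 11515 and 7505 within CHLA-266. After normalization for library size, the log2 fold change with treatment was -0.34 for *SMARCB1* (SE 0.21, adjusted *p* = 0.226 in edgeR). For *MYC* it was -0.59 (SE 0.17, adjusted *p* = 0.0289 in edgeR). Whether the *SMARCB1* transcripts encode a whole protein was not tested. Counts in the following are deposited read counts without normalization, given in the order untreated, treated. CPM (counts scaled to a common library size) and log2 fold changes are normalized for library size by TMM. Most low counts were even numbers, and intervals for counting error may then be too narrow. In bulk RNA, a change in the share of cells that express a gene and a change in RNA per cell cannot be told apart.

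After treatment, 26 of the 66 genes were upregulated and 8 downregulated when edgeR was fitted across all 18066 genes (quasi-likelihood test, threshold of 0.05 on adjusted *p*). Among all genes tested, 16.1% were called higher and 19.1% lower. The median log2 fold change was 0.93 over the 66 genes and 0.24 over all genes. The median of the 66 genes moved to 1.83 without the untreated BT-16 library (0.29 over all genes). That fit left only untreated CHLA-266, where 10 members had 0 counts. With the line as a block, the median of the 66 genes was 1.49 in edgeR (0.23 over all genes) and 1.80 in DESeq2 (0.30 over all genes). It was 0.53 in limma on VST values (0.16 over all genes). In the 43 members with at least 10 counts per library it was 0.50, and that of all genes was 0.0052. Of 32 receptors, 18 were called higher and 1 lower (median 1.95), and of 34 ligands, 8 were called higher and 7 lower (median 0.58). The difference between receptors and ligands was not tested, and after the subtraction of olfactory receptor reads described below, 11 receptors and 7 ligands were called higher and 1 and 7 lower. All 5 EphB receptors were upregulated, as were 5 of 9 EphA receptors, 3 of the 5 genes of UNC5 receptors and DCC, 2 of 4 Robos, 2 of 7 plexins, and 1 of 2 neuropilins. Of the ligands, 5 of 20 semaphorins, 2 of 4 netrins, 1 of 3 Slits, and no ephrin were upregulated. The libraries of both conditions did not overlap in any of the 34 called genes, nor in some genes without a call, such as *EPHA2* and *SLIT1*. With 2 libraries per condition, a call favors genes without overlap, and the share among all genes was not determined. With upper-quartile normalization the median over all genes shifted to 0.59, and 24.1% of all genes were called higher and 10.5% lower, against 30 and 7 of the 66 members. The smallest two-sided *p* of an exact permutation test with these 4 libraries is 0.333, and the calls use the spread between cell lines as edgeR estimated it over all genes.

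**Figure D1:**
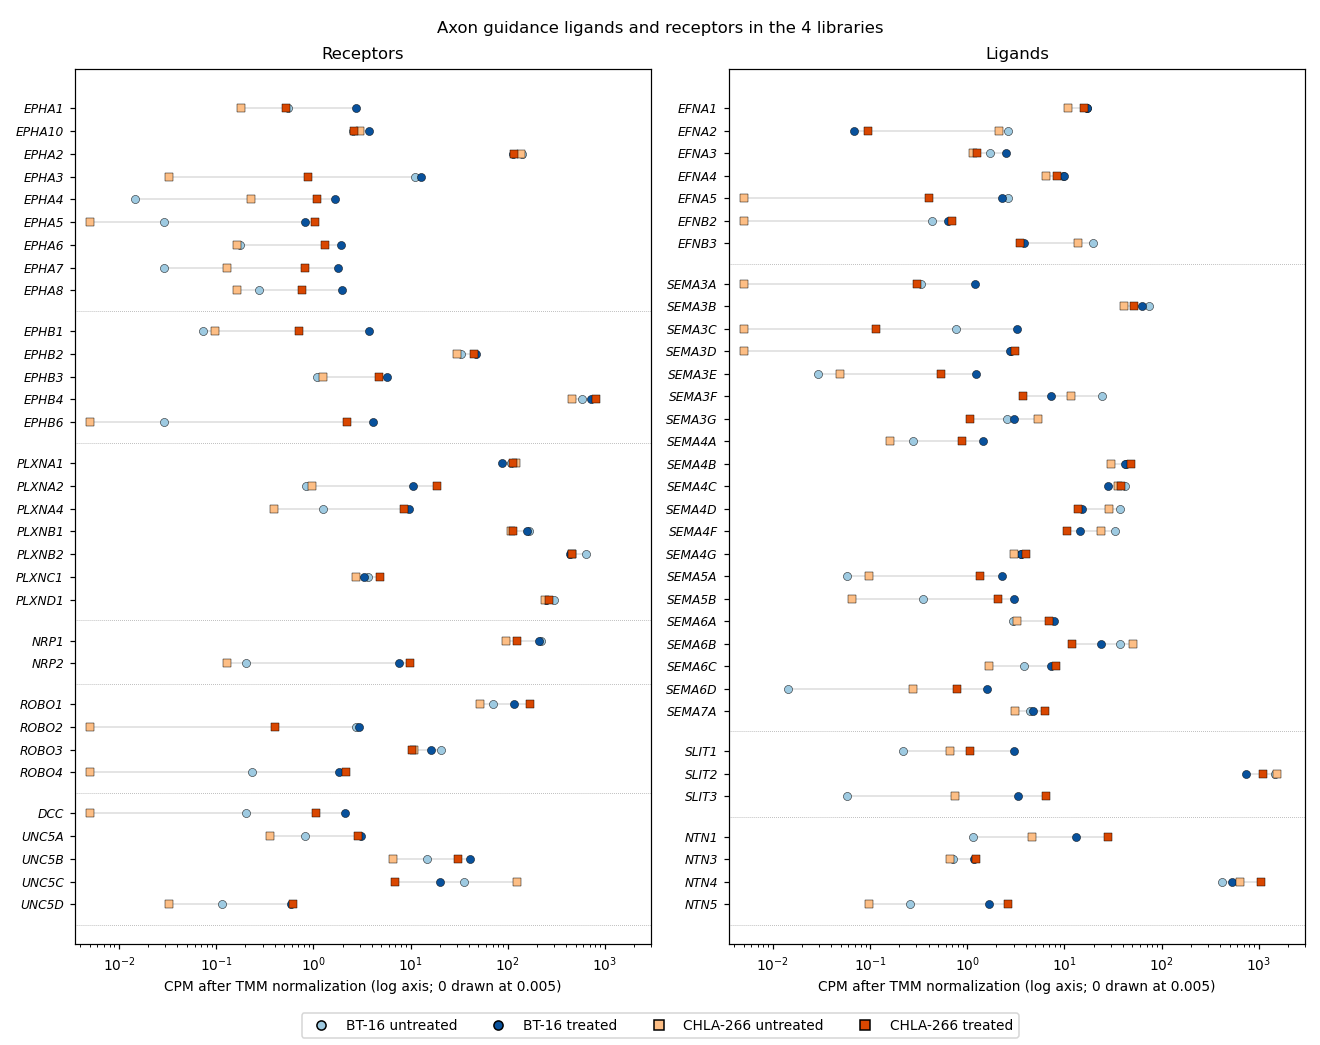
CPM after TMM normalization (log axis, 0 drawn at 0.005) of all 66 genes in the 4 libraries, with receptors on the left and ligands on the right and dotted lines between families. *SLIT2*, *NTN4*, *EPHB4*, and *PLXNB2* lie farthest right in every library, and the 10 genes with a square at the left edge had 0 counts in untreated CHLA-266 cells.

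Many of these genes were barely expressed before treatment. In an untreated library, 22 of the 66 genes fell under 10 counts, and 13 of these were called higher. Picked by low untreated counts, these genes could hardly be called lower, and none was. The share called among all genes with such counts was not determined. To set such counts against the reads in olfactory receptor genes, counts per kilobase were compared with the 95th percentile of the 380 olfactory receptor genes in the same library. Of the 26 upregulated genes, 14 were above it in both treated libraries: *NRP2*, *PLXNA2*, *PLXNA4*, *EPHB2*, *EPHB3*, *EPHB4*, *EPHB6*, *UNC5A*, *UNC5B*, *ROBO1*, *NTN1*, *NTN5*, *SEMA6A*, and *SEMA6C*. *EPHB6* was only just above it in CHLA-266 (21.6 against 21.2 counts per kilobase). The other 12 were not above it in both. Against the 95th percentile of 178 genes of other tissue-restricted families, which was higher (61.7 and 64.4 counts per kilobase in treated BT-16 and CHLA-266 cells), 6 of the 14 were above it in both treated libraries (*EPHB2*, *EPHB4*, *ROBO1*, *UNC5B*, *NTN1*, *SEMA6C*), and 6 in neither (*NRP2*, *PLXNA4*, *EPHB6*, *UNC5A*, *NTN5*, *SEMA6A*). When the median of the olfactory receptor genes per kilobase was subtracted from every gene (an alternative added after seeing the data), 18 genes were called higher and 8 lower. Among all genes, 11.9% were then called higher and 17.1% lower. The calls lost were *DCC*, *EPHA4*, *EPHA5*, *EPHA6*, *EPHA7*, *EPHA8*, *ROBO4*, and *SEMA3E*, which include every upregulated EphA receptor. All 8 downregulated genes were above the 95th percentile in both untreated libraries, as were 38 of all 66 genes. A gene can hardly be called lower without counts before treatment, so this lends the lower calls no support. The share among all genes was not determined.

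**Figure D2:**
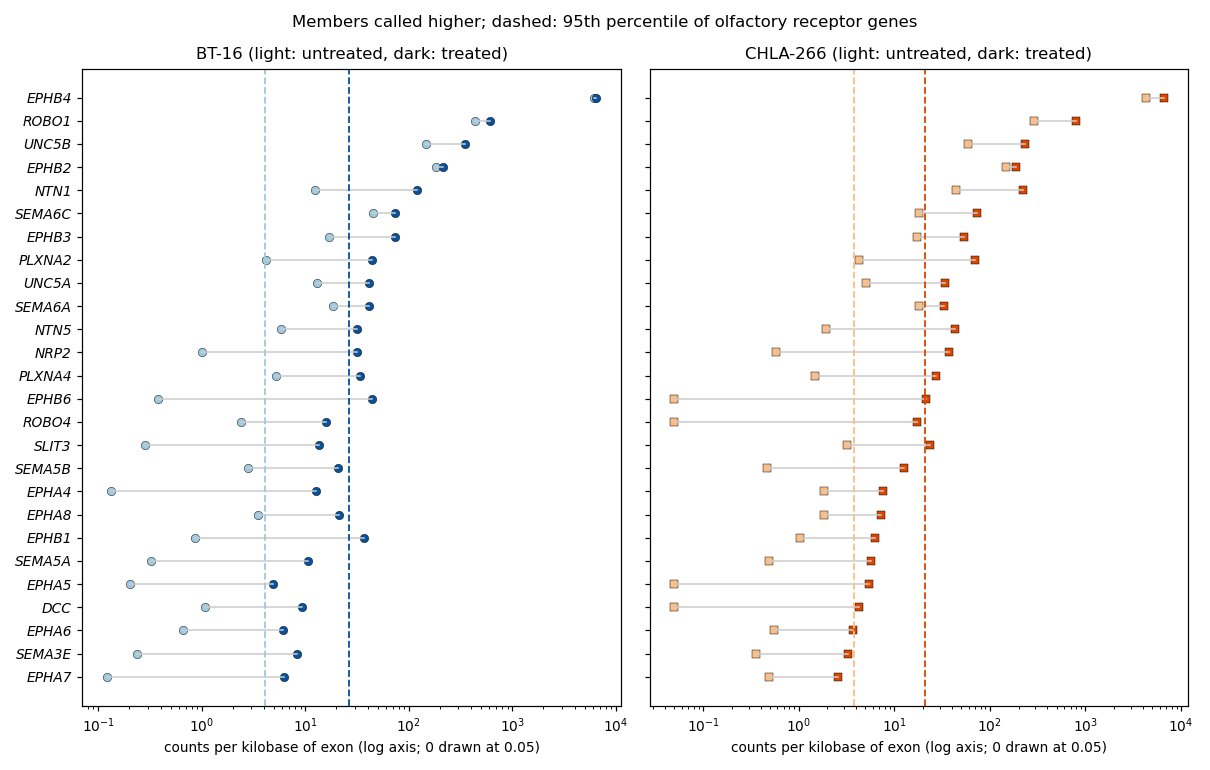
Counts per kilobase of exon (log axis, 0 drawn at 0.05) of the 26 upregulated genes in BT-16 (left) and CHLA-266 (right), untreated in light and treated in dark symbols, with dashed lines at the 95th percentile of 380 olfactory receptor genes in the library of the same color. The upper 14 genes lie right of the dark line in both panels, and the lower 12 lie left of it in at least 1 panel.

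The smallest adjusted *p* value of all members belonged to *NRP2*, a co-receptor for secreted semaphorins and for VEGF-C. *NRP2* had 14 and 435 counts within BT-16 and 8 and 515 within CHLA-266. Both treated libraries were far above both untreated ones (37.1-fold in BT-16 and 76.3-fold in CHLA-266 after normalization), and the log2 fold change was 5.69 (SE 0.49, adjusted *p* = 9.4e-05 in edgeR). *NRP1*, the other neuropilin, is also a co-receptor for secreted semaphorins and VEGF and was not called, with 15213 and 12275 counts within BT-16 and 5850 and 6450 within CHLA-266 (log2 fold change 0.09, SE 0.37, adjusted *p* = 0.857 in edgeR). *NRP1* took 99.9% of the counts per kilobase of both neuropilins in each untreated line, 97.1% in treated BT-16, and 93.8% in treated CHLA-266 cells, so it stayed the more abundant neuropilin in every library.

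Plexins are the signaling receptors of semaphorins. *PLXNA2*, a receptor for class 3 and class 6 semaphorins, had 58 and 611 counts within BT-16 and 59 and 968 within CHLA-266 (log2 fold change 4.02, SE 0.40, adjusted *p* = 0.000205 in edgeR). *PLXNA4*, which binds semaphorins of the same classes, had 86 and 555 counts within BT-16 and 24 and 450 within CHLA-266 (log2 fold change 3.47, SE 0.56, adjusted *p* = 0.0023 in edgeR). These 2 genes were the only plexins called. The other 5 plexins were not called, and the abundant members were *PLXNB2*, with 54.1% to 59.8% of the counts per kilobase of all plexins, and *PLXND1*, with 21.6% to 24.2%. *PLXNB2* had 43800 and 25568 counts within BT-16 and 28030 and 23922 within CHLA-266 (log2 fold change -0.27, SE 0.20, adjusted *p* = 0.294 in edgeR), and the sign turned with upper-quartile normalization. *PLXNA2* reached 0.679% and 1.17% of the plexin counts per kilobase after treatment, against 0.0416% and 0.0629% before.

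**Figure D3:**
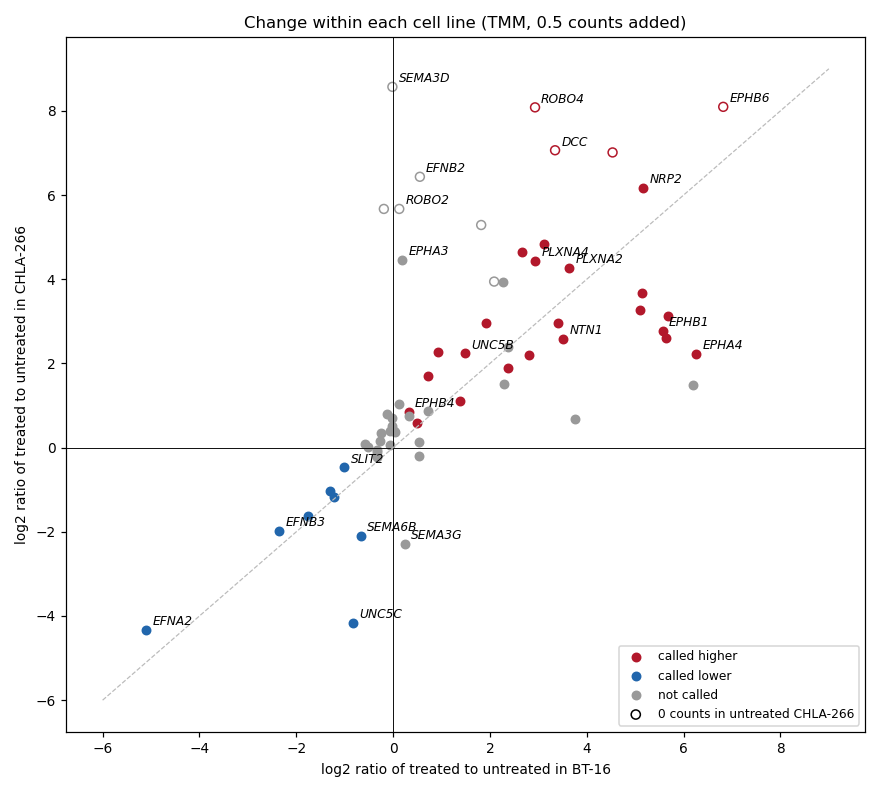
Log2 ratio of treated to untreated counts (TMM, 0.5 counts added) in BT-16 (horizontal) and CHLA-266 (vertical) for all 66 genes, colored by the edgeR call, with open circles for genes with 0 counts in untreated CHLA-266 cells, whose vertical position depends on the 0.5 counts added. The 8 downregulated genes lie in the lower left and the 26 upregulated genes in the upper right, while *UNC5C* and *SEMA3D* lie far from the diagonal.

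Of the Eph receptors, all 5 EphB genes were upregulated, but from very different levels. *EPHB4*, best known as the venous receptor of ephrin-B2, took 94.6% to 96.8% of the EphB counts per kilobase in each library. It had 576 and 723 CPM in BT-16 and 455 and 817 CPM in CHLA-266 (log2 fold change 0.58 against the median of 0.24 over all genes, SE 0.18, adjusted *p* = 0.0391 in edgeR). *EPHB2* had 33.4 and 46.8 CPM in BT-16 and 30.1 and 45.1 CPM in CHLA-266. *EPHB3* had 76 and 331 counts within BT-16 and 78 and 246 within CHLA-266, a log2 fold change of 2.14 (SE 0.44, adjusted *p* = 0.00696 in edgeR). *EPHB6*, an Eph receptor without kinase activity, was nearly absent before treatment, with 2 and 236 counts within BT-16 and 0 and 115 within CHLA-266. The ratio of *EPHB6* summed over the lines was 209 with a counting interval of 57.3 to 1730, and it was at least 45.4-fold higher in CHLA-266 against a floor of 3 counts per library (adjusted *p* = 0.00105 in edgeR). *EPHB1* had 5 and 218 counts in BT-16 but 6 and 37 in CHLA-266 (log2 fold change 4.69, SE 1.01, adjusted *p* = 0.00849 in edgeR). Without the treated BT-16 library, *EPHB1* missed the threshold (log2 fold change 3.04, adjusted *p* = 0.218), as did *EPHB2* (0.0792). *EPHB4* missed it without either CHLA-266 library (0.227 without the untreated and 0.0677 without the treated library), and *EPHB2* without either untreated library (0.0885 and 0.188).

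The EphA receptors were led by *EPHA2*, a receptor with high expression in many epithelial tumors, which took 87.5% to 98.5% of the EphA counts per kilobase. *EPHA2* had 142 and 112 CPM in BT-16 and 138 and 117 CPM in CHLA-266 and was not called (log2 fold change -0.28, SE 0.15, adjusted *p* = 0.172 in edgeR), with the opposite sign under upper-quartile normalization. The 5 EphA receptors called higher are mainly known from neurons and had at most 114 counts in any library. *EPHA6* had 12 and 111 counts within BT-16 and 10 and 68 within CHLA-266 (log2 fold change 3.25, SE 0.79, adjusted *p* = 0.0144 in edgeR). *EPHA5* had 2 and 48 counts within BT-16 and 0 and 54 within CHLA-266, a ratio of 60.6 over both lines with a counting interval of 16.4 to 508 (adjusted *p* = 0.0155 in edgeR). *EPHA7* (2 and 103, 8 and 43 counts), *EPHA4* (1 and 96, 14 and 57 counts), and *EPHA8* (19 and 114, 10 and 40 counts) were the others. None of these 5 genes was above the 95th percentile of olfactory receptors in both treated libraries, and their calls ended when the olfactory receptor median was subtracted. In addition, the fit without the treated BT-16 library ended the calls of *EPHA4* (adjusted *p* = 0.0878), *EPHA6* (0.0713), *EPHA7* (0.14), and *EPHA8* (0.388), and the fit without the treated CHLA-266 library ended that of *EPHA5* (0.0588). The fit without the untreated BT-16 library ended those of *EPHA4* (0.0824), *EPHA7* (0.0575), and *EPHA8* (0.0696), and the fit without the untreated CHLA-266 library that of *EPHA8* (0.13). The fitted log2 fold change of *EPHA5* moved from 5.78 to 8.74 without the untreated BT-16 library, and that of *EPHA4* from 3.51 to 6.38 without the untreated CHLA-266 library. When edgeR was given the line as a block, *EPHA8* missed the threshold (adjusted *p* = 0.0632), and when genes with a total under 10 counts were dropped, *EPHA4* (0.0531) and *EPHA8* (0.0501) did.

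No ephrin was upregulated, and 2 of 7 were downregulated. *EFNB3*, a transmembrane ephrin, had 1361 and 223 counts within BT-16 and 847 and 182 within CHLA-266 (log2 fold change -2.19, SE 0.30, adjusted *p* = 0.00111 in edgeR). *EFNA2*, an ephrin anchored to the membrane by a lipid, had 183 and 4 counts within BT-16 and 130 and 5 within CHLA-266 (log2 fold change -4.82, SE 0.76, adjusted *p* = 0.00205 in edgeR). In both genes, each treated library was below each untreated one, a separation that a call with 2 libraries per condition favors. *EFNB3* fell from 25.3% to 6.39% of the ephrin counts per kilobase in BT-16 and from 26.9% to 6.87% in CHLA-266. *EFNA1* and *EFNA4*, the most abundant ephrins per kilobase, were not called. *EFNA1*, a ligand of *EPHA2*, had 1184 and 979 counts within BT-16 and 675 and 819 within CHLA-266 (log2 fold change 0.22, SE 0.27, adjusted *p* = 0.539 in edgeR). *EFNB2*, the main ligand of *EPHB4*, had 30 and 37 counts within BT-16 and 0 and 36 within CHLA-266 and was not called.

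Promoters of the called members of smallest adjusted *p* value with an entry in RefSeq are shown, as sequence context of the genes with the clearest calls. The windows are the 250 bases before the start site on GRCh38.p14, written 5′ to 3′ on the strand of the gene: *NRP2* at chr2:205682251-205682500 (plus strand), *PLXNA2* at chr1:208244385-208244634 (minus strand), *EFNA2* at chr19:1285623-1285872 (plus strand), and *SEMA4D* at chr9:89495657-89495906 (minus strand). Capitals mark the GC box GGGCGG, which Sp1 and related factors are known to bind, and the E-box CACGTG, which MYC and MAX are known to bind, on either strand.
NRP2: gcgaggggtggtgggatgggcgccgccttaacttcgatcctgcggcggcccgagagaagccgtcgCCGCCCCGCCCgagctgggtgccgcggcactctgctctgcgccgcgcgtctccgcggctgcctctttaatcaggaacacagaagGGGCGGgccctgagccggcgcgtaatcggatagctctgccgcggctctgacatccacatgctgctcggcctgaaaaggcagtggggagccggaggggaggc
PLXNA2: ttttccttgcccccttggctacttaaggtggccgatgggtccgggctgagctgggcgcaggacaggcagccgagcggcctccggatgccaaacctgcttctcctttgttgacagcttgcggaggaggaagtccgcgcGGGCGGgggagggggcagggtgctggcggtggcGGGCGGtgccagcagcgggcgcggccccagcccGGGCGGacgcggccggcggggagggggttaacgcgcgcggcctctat
EFNA2: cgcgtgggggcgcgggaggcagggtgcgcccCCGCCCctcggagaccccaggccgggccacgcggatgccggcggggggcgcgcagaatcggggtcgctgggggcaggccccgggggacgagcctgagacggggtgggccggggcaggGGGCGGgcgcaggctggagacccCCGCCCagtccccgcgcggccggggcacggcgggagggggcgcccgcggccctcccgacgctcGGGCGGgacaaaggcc
SEMA4D: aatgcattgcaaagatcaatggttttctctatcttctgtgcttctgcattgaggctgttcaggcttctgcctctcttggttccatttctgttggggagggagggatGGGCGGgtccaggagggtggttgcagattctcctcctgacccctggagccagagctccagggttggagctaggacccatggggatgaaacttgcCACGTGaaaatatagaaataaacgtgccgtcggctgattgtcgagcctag
The GC boxes of *NRP2* began at positions -185, -180, and -101 from the start site, with the first 2 overlapping by 1 base. Those of *PLXNA2* began at -113, -80, and -47, and those of *EFNA2* at -219, -102, -79, and -16. *SEMA4D* held a GC box at -144 and an E-box at -50. The windows of *NRP2* and *SEMA4D* lie inside the longest gene model of GENCODE 44, and those of *PLXNA2* and *EFNA2* end where the gene begins. Of the 66 genes, 56 had a promoter entry, and 40 of these (71.4%) held a GC box, against 57.0% of 14642 promoters of genes in the count table. The median GC content of these windows was 69.6% in upregulated members, 71.4% in downregulated members, 64.4% in members without a call, and 62.4% in all promoters, and its part in the number of GC boxes was not tested. The E-box CACGTG was found in 4 of 56 members (7.14%; *EPHA8*, *SEMA3E*, *SEMA4D*, *SEMA6D*) and in 7.81% of all promoters. GC boxes were in 17 of 23 upregulated, 5 of 6 downregulated, and 18 of 27 members without a call. The other motifs searched on both strands were TATAAA (1 of 56 members, 9.30% of all promoters), TGANTCA, bound by AP-1 (1 of 56 members, 4.97% of all), TTTGAA of cell cycle genes (5 of 56 members, 10.7% of all), and TGACNNNGC of antioxidant genes (6 of 56 members, 11.5% of all). These are matches of letters and not sites of measured binding.

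Of 20 semaphorins, 5 were upregulated, 4 downregulated, and 11 not called, against 16.1% higher and 19.1% lower among all genes. In each downregulated semaphorin, both treated libraries were below both untreated ones, but none of the 34 called genes had overlapping libraries, which a call favors. *SEMA4D*, a transmembrane ligand of plexin-B1, had 2547 and 867 counts within BT-16 and 1766 and 725 within CHLA-266 (log2 fold change -1.18, SE 0.21, adjusted *p* = 0.00402 in edgeR). *SEMA4F* had 2303 and 831 counts within BT-16 and 1467 and 553 within CHLA-266 (log2 fold change -1.19, SE 0.26, adjusted *p* = 0.00842 in edgeR). *SEMA6B*, a ligand of plexin-A4, had 2593 and 1366 counts within BT-16 and 3156 and 626 within CHLA-266 (log2 fold change -1.32, SE 0.31, adjusted *p* = 0.013 in edgeR). *SEMA3F*, one of the secreted semaphorins that bind neuropilin-2, had 1695 and 420 counts within BT-16 and 712 and 193 within CHLA-266 (log2 fold change -1.72, SE 0.43, adjusted *p* = 0.0166 in edgeR). *SEMA3F* was thus downregulated in the comparison in which *NRP2* was upregulated. Without the untreated BT-16 library, *SEMA4F* (adjusted *p* = 0.0552) and *SEMA3F* (0.103, log2 fold change -1.07) missed the threshold, and without the untreated CHLA-266 library *SEMA6B* did (0.058).

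Of the upregulated semaphorins, only *SEMA6A* (204 and 448, 198 and 358 counts) and *SEMA6C* (263 and 422, 104 and 426 counts) were above the 95th percentile of olfactory receptors in both treated libraries. Both are transmembrane semaphorins, and *SEMA6A* is a ligand of plexin-A2 and plexin-A4. *SEMA5A* had 4 and 132 counts within BT-16 and 6 and 70 within CHLA-266 (log2 fold change 4.52, SE 0.86, adjusted *p* = 0.00527 in edgeR). *SEMA5B* had 24 and 177 counts within BT-16 and 4 and 109 within CHLA-266 (log2 fold change 3.62, SE 0.86, adjusted *p* = 0.0129 in edgeR). *SEMA3E*, a ligand of plexin-D1, had 2 and 71 counts within BT-16 and 3 and 28 within CHLA-266, a ratio of 23.5 with a counting interval of 9.76 to 74.1. The call of *SEMA6C* was lost without the untreated CHLA-266 library (adjusted *p* = 0.107), that of *SEMA6A* without the untreated BT-16 (0.0729), treated BT-16 (0.0696), or untreated CHLA-266 library (0.0598), and that of *SEMA3E* without either BT-16 library (0.0645 and 0.217). *SEMA3B*, the most abundant semaphorin per kilobase in 3 of the 4 libraries, had 5156 and 3645 counts within BT-16 and 2510 and 2690 within CHLA-266 and was not called (log2 fold change -0.01, SE 0.27, adjusted *p* = 0.98 in edgeR).

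*SLIT2*, a secreted repellent and the main ligand of *ROBO1*, was the most abundant of the ligands and receptors by count. It had 102320 and 42688 counts within BT-16 and 94224 and 57464 within CHLA-266, or 1483 and 738 CPM and 1531 and 1106 CPM. Its log2 fold change was -0.71 (SE 0.22, adjusted *p* = 0.0338 in edgeR), and the sign was negative in each alternative. However, the call was lost with upper-quartile normalization (0.175), library totals (0.0714), and a minimum of 10 counts per library (0.0809), and without the untreated BT-16 (0.0809), treated BT-16 (0.113, log2 fold change -0.45), or untreated CHLA-266 library (0.0985). *SLIT3* had 4 and 192 counts within BT-16 and 46 and 340 within CHLA-266 and was called higher, with a log2 fold change of 3.62 that moved to 6.36 without the untreated CHLA-266 library. *SLIT1* was not called. *SLIT2* made up 99.16% to 99.98% of the Slit counts per kilobase in each library. *ROBO1* had 70.1 and 115 CPM in BT-16 and 52.0 and 170 CPM in CHLA-266 (log2 fold change 1.22, SE 0.23, adjusted *p* = 0.00476 in edgeR), against the negative value of its ligand *SLIT2*. Its share of the Robo counts per kilobase was 67.1% and 79.0% within BT-16 and 75.4% and 89.4% within CHLA-266. *ROBO4*, an endothelial Robo, had 16 and 105 counts within BT-16 and 0 and 114 within CHLA-266, and was called higher, but not after subtraction of the olfactory receptor median (adjusted *p* = 0.0596). Its fitted log2 fold change moved from 4.07 to 9.84 without the untreated BT-16 library, which leaves only 0 counts before treatment.

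Of the netrin receptors, *UNC5B* was upregulated and *UNC5C* downregulated. Both belong to the UNC5 family, which mediates repulsion by netrin-1 and can induce apoptosis when the ligand is missing. *UNC5B* had 1012 and 2380 counts within BT-16 and 402 and 1611 within CHLA-266 (log2 fold change 1.77, SE 0.36, adjusted *p* = 0.00677 in edgeR). *UNC5C*, the only receptor downregulated, had 2445 and 1157 counts within BT-16 and 7728 and 364 within CHLA-266 (log2 fold change -2.57, SE 0.61, adjusted *p* = 0.0127 in edgeR). *UNC5C* took 58.4% and *UNC5B* 37.8% of the counts per kilobase of UNC5 receptors and DCC in untreated BT-16 cells, and 21.2% and 68.2% after treatment. In CHLA-266, *UNC5C* took 91.9% before and 10.95% after treatment, and *UNC5B* 7.46% and 75.7%. The fall of *UNC5C* was larger in CHLA-266, where the treated level was 0.0558 of the untreated level, than in BT-16, where it was 0.565 of it, but a difference between the lines could not be tested with 1 library each. Without the untreated CHLA-266 library, the log2 fold change of *UNC5C* was -1.39 and the call was lost (adjusted *p* = 0.0588), and it was also lost in DESeq2 with a block for the line (0.136). *UNC5A* (56 and 178, 22 and 148 counts) was called higher, but not without the untreated CHLA-266 library (adjusted *p* = 0.0636). *DCC*, the receptor for attraction, had 14 and 123 counts within BT-16 and 0 and 56 within CHLA-266. It was called higher, but not after the subtraction, nor without the treated BT-16 (adjusted *p* = 0.0746) or untreated CHLA-266 library (0.0543), nor with the filter of edgeR (0.0534) or a minimum total of 10 counts (0.0559). Leaving out the untreated BT-16 library, which leaves only 0 counts before treatment, raised its fitted log2 fold change from 3.93 to 9.52.

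**Figure D4:**
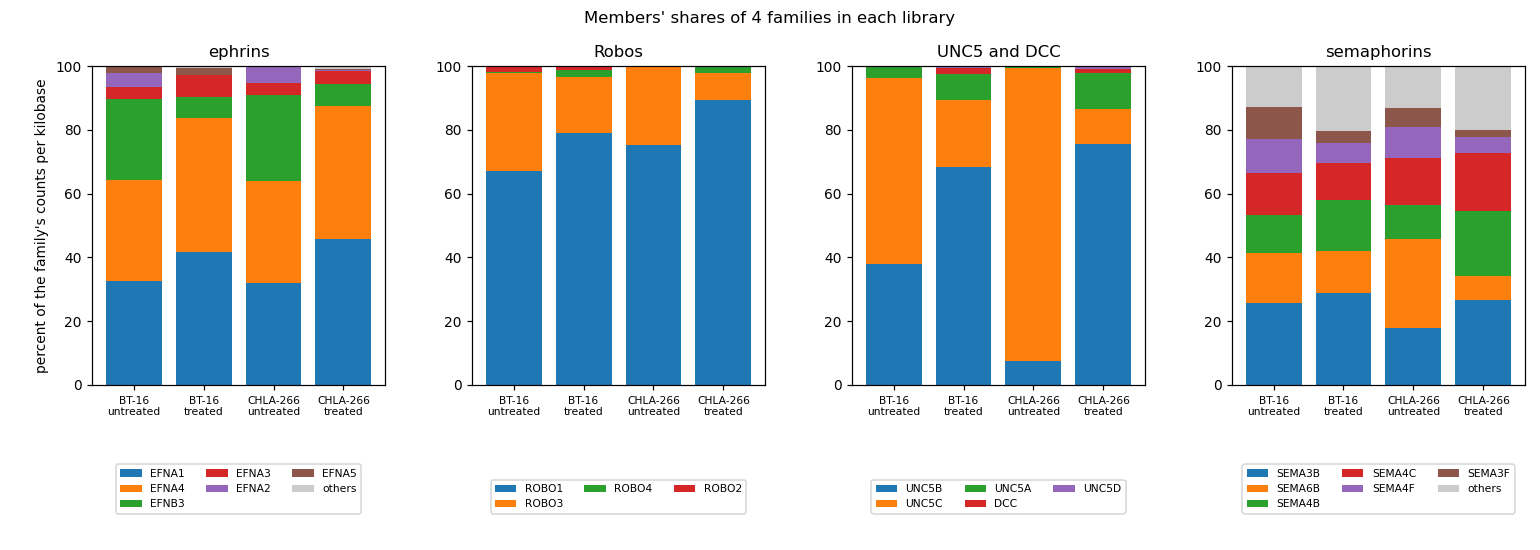
Share of each member in the counts per kilobase of its family (percent, stacked to 100) in the 4 libraries, for ephrins, Robos, UNC5 receptors and DCC, and semaphorins, with the 6 most abundant members shown and the rest as others. The share of *UNC5C* fell from 58.4% to 21.2% in BT-16 and from 91.9% to 10.95% in CHLA-266, and that of *EFNB3* from 25.3% to 6.39% and from 26.9% to 6.87%.

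Among the netrins, *NTN1*, the ligand of DCC and UNC5 receptors, was upregulated, with 79 and 762 counts within BT-16 and 284 and 1444 within CHLA-266 (log2 fold change 2.83, SE 0.62, adjusted *p* = 0.00895 in edgeR). *NTN5* had 18 and 98 counts within BT-16 and 6 and 136 within CHLA-266 (log2 fold change 3.57, SE 0.79, adjusted *p* = 0.00992 in edgeR). *NTN4*, a netrin of basement membranes that binds laminin, took 97.5% to 99.4% of the netrin counts per kilobase. It had 419 and 524 CPM in BT-16 and 636 and 1064 CPM in CHLA-266 and was not called (log2 fold change 0.59, SE 0.33, adjusted *p* = 0.183 in edgeR). Its log2 fold change ranged from 0.00083 without the treated CHLA-266 library to 1.01 without the treated BT-16 library. When edgeR was given the line as a block, *NTN4* passed the threshold (adjusted *p* = 0.00528), as did *EPHA3* (0.029) and *SEMA3C* (0.0498), for totals of 28 higher and 8 lower. *NTN4* was also called higher in DESeq2 with the block and in edgeR with upper-quartile normalization.

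BT-16 and CHLA-266 were also compared with each other, with the treatment in the edgeR model. Of the 66 genes, 2 were called higher in CHLA-266 and 8 higher in BT-16, while among all genes 0.836% were called higher in CHLA-266 and 1.46% higher in BT-16. *EPHA3*, an EphA receptor of embryonic tissues and brain tumors, showed the smallest adjusted *p* value. It had 774 and 739 counts in BT-16 (untreated, treated) but 2 and 46 in CHLA-266 (log2 difference of CHLA-266 to BT-16 -5.24, SE 0.55, adjusted *p* = 1.72e-07 in edgeR). *SEMA3C* (53 and 190 against 0 and 6 counts), *ROBO2* (188 and 172 against 0 and 21 counts), and *EFNA5* (180 and 132 against 0 and 21 counts) were also higher in BT-16 and were at 0 in untreated CHLA-266 cells. *NRP1* was higher in BT-16, with 221 and 212 CPM against 95.03 and 124 CPM in CHLA-266 (log2 difference -0.99, SE 0.15, adjusted *p* = 8.58e-05 in edgeR). *SEMA3F*, *PLXNB1*, and *UNC5B* were also higher in BT-16, with log2 differences of -1.03, -0.55, and -0.78. *NTN1* (log2 difference 1.51, SE 0.27, adjusted *p* = 0.000891 in edgeR) and *NTN4* (0.81, SE 0.15, adjusted *p* = 0.00136 in edgeR) were higher in CHLA-266. In untreated CHLA-266 cells, 10 of the 66 genes had 0 counts (*DCC*, *EFNA5*, *EFNB2*, *EPHA5*, *EPHB6*, *ROBO2*, *ROBO4*, *SEMA3A*, *SEMA3C*, *SEMA3D*), against none in untreated BT-16 and none in either treated library. *SEMA3D*, a secreted semaphorin, had 193 and 160 counts in BT-16 but 0 and 160 counts in CHLA-266, where it was at least 63.2-fold higher after treatment against a floor of 3 counts per library. It was not called between conditions (adjusted *p* = 0.556 in edgeR) or between lines (0.403). Without a treatment term, edgeR called 0 members between the lines (2 at an unadjusted *p* under 0.05), and DESeq2 with the treatment term called 2 and 6.

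**Figure D5:**
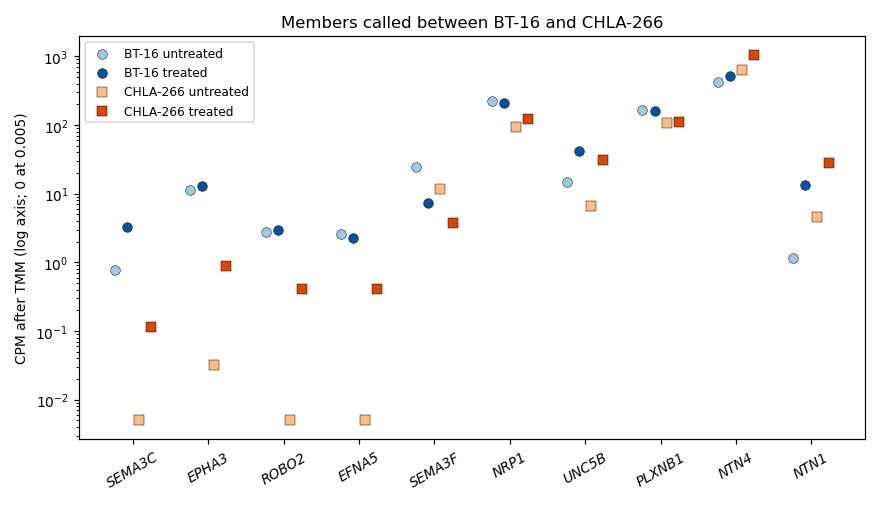
CPM after TMM normalization (log axis, 0 drawn at 0.005) in the 4 libraries of the 10 genes called between the cell lines. *EPHA3*, *SEMA3C*, *ROBO2*, and *EFNA5* lie lower in both CHLA-266 libraries (squares) than in both BT-16 libraries (circles), and *NTN1* and *NTN4* lie higher in CHLA-266 than in BT-16 cells of the same condition.

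Genes that act downstream of these receptors or in related guidance systems were taken from 5 lists written from general knowledge, with 102 different genes, of which 27 were called higher and 10 lower, against 16.1% and 19.1% of all genes. Of 25 genes downstream of Eph receptors, 7 were higher and 2 lower (median log2 fold change 0.16), led by *KALRN*. *KALRN* had 127 and 748 counts within BT-16 and 81 and 514 within CHLA-266 (log2 fold change 2.85, SE 0.37, adjusted *p* = 0.000761 in edgeR). After treatment it had 21.9 and 15.0 counts per kilobase, below the 95th percentile of olfactory receptors in both lines (26.3 and 21.2). *CHN1*, a Rac-inactivating protein downstream of *EPHA4*, was lower (1407 and 653, 975 and 469 counts). Of 25 genes downstream of plexins and neuropilins, 3 were higher and 5 lower (median 0.06). *DPYSL4* and *DPYSL5* are collapsin response mediators of semaphorin signaling and moved in opposite directions, *DPYSL4* by 1.06 and *DPYSL5* by -2.34 on the log2 scale (adjusted *p* = 0.00524 and 0.00179 in edgeR). Of 19 genes downstream of Robo receptors, 6 were higher and 1 lower (median -0.0037), with *SRGAP3* as the gene of smallest adjusted *p* value (1384 and 3308, 817 and 2751 counts) and *SRGAP2* as the only lower one. *SRGAP2* has near-identical copies, so its value is uncertain. Of 17 genes downstream of netrin receptors, 6 were higher and 2 lower (median 0.25). *PAK1*, a kinase activated by Rac, had 96 and 392 counts within BT-16 and 59 and 358 within CHLA-266, and *DOCK1*, a Rac activator, had 9707 and 3447 counts within BT-16 and 9115 and 3625 within CHLA-266. Of 26 genes of related guidance systems, 8 were higher and 1 lower (median 1.06), with *NFASC*, an adhesion molecule of axons, higher (61 and 595, 54 and 332 counts) and *PTK7*, a receptor of planar cell polarity, lower (8771 and 2679, 6426 and 3128 counts).

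Since many members are also expressed by neurons, glia, or vessels, markers of other cell types were examined in the same libraries. Of 12 neuronal markers, 7 were called higher and none lower (16.1% and 19.1% of all genes), and their summed level went from 35.8 to 135 CPM in BT-16 and from 27.6 to 59.6 CPM in CHLA-266. Without *INA*, a neuronal intermediate filament named after its values were seen (9.06 and 76.8 CPM in BT-16), the sum went from 26.7 to 57.7 CPM in BT-16 and from 25.4 to 42.9 CPM in CHLA-266. Of 9 glial markers, 6 were higher (20.0 to 46.7 CPM in BT-16, 22.2 to 79.8 CPM in CHLA-266). Most glial counts were those of *SLC1A3*, also named after its values were seen (1179 and 1809 counts within BT-16, 1045 and 3393 within CHLA-266). Of 10 endothelial markers, one of which is *ROBO4*, 5 were higher (10.2 to 20.2 CPM and 8.59 to 14.5 CPM). Of 12 macrophage markers, 3 were higher (6.55 to 12.6 CPM and 3.48 to 10.3 CPM), with 5 of them at 0 in each untreated library and 1 at 0 in each treated library. Of 9 fibroblast markers, 2 were higher and 1 lower (14.8 to 24.03 CPM and 11.1 to 13.0 CPM). In both treated libraries, 3 of the neuronal markers were above the 95th percentile of olfactory receptors. Of the glial, endothelial, macrophage, and fibroblast markers, 1 each was. In both untreated libraries, 3 neuronal, 2 glial, 4 endothelial, 1 macrophage, and 2 fibroblast markers were above it. In addition, all 8 proliferation genes were lower (median log2 fold change -5.18). Their summed level went from 3675 to 111 CPM in BT-16 and from 3669 to 98.4 CPM in CHLA-266, although the treated cells were harvested after regrowth. Of 10 housekeeping genes, 1 was higher and 5 were lower. The part of reads like those in olfactory receptor genes in the changes of single members was not tested beyond the subtraction given above. The part of other cell types and of proliferation in these changes was not tested.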

How the data were processed

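RNA of 2 cell lines, untreated and treated, was sequenced in 4 libraries (bcl2fastq 2.20). The authors trimmed the reads with Skewer, aligned them with STAR to hg38, and counted them per gene. The estimated counts the authors deposited are not normalized, with 5 fractional values (2 genes), which were rounded here. The log2 values the authors deposited are DESeq2 variance-stabilized counts (VST) of 17553 genes.

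The members and lists were chosen with earlier results of these data known. Conditions were compared with edgeR 4.0.16 (R 4.3.3; quasi-likelihood test, TMM, Benjamini-Hochberg over 18066 genes with a nonzero total, adjusted p under 0.05), without the cell line, and lines with the treatment in the model. p-values between conditions measure the spread between these 2 lines. Those between lines, and with the line as a block, rest on how the change with treatment differs between lines, not on separate cultures. The libraries are paired by their line, and the correlation of paired deviations was 0.157 over 15963 genes. Ratios within a line had 0.5 counts added, and their 95% intervals cover counting error only. Alternatives were a block, DESeq2 1.42.0, other scalings and filters, halved counts, limma 3.58.1 on VST values, and left-out libraries. The code was tested on simulated data. Full statistics are given for the 20 members of smallest adjusted p, all lower members, the most abundant member of each family, *EPHB6*, and members of opposite sign in the 2 lines. From the other lists, the called gene of smallest adjusted p in each direction is named. Exon lengths and coordinates come from GENCODE 44 and promoters from RefSeq.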

Additional observations from a re-analysis of the deposited data

Results flagged for a closer look

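With TMM normalization, the log2 ratios of 4 abundant genes had opposite signs in the 2 cell lines, with intervals that exclude 0 in each line but cover only the counting error between single libraries. For *NRP1*, the log2 ratio (treated over untreated, TMM) was -0.055 in BT-16 against 0.39 in CHLA-266. For *SEMA3B* it was -0.25 in BT-16 against 0.34 in CHLA-266, and for *PLXND1* -0.28 against 0.15. For *PLXNB1* it was -0.066 in BT-16 against 0.053 in CHLA-266, and its intervals did not exclude 0 when counts were halved. The difference between the lines was not tested, since each line had 1 library per condition. The opposite signs depend on the scaling: with upper-quartile normalization and with library totals (chosen for these ratios after seeing the data), all 4 genes had positive ratios in both lines, and with DESeq2 size factors *NRP1* (0.044 in BT-16) and *PLXNB1* (0.033) did.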

How the results depend on the processing

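With the cell line as a replicate block, 28 members were called higher and 8 lower, and no call changed other than those of *EPHA8*, *EPHA3*, *NTN4*, and *SEMA3C* given above. With at least 10 counts in every library, 43 members were left and 15 were called higher. The share of all genes called with this filter was not determined. When 1 library was left out, 18 to 27 members were called higher and 5 to 9 lower, with 5 lower without either untreated library, and 13 higher and 3 lower members were called in all 4 of these fits. In the downstream and related lists, 43 genes were higher and 5 lower with upper-quartile normalization (27 and 10 with TMM), and 4 were lower with an absolute log2 fold change of at least 1. Between the lines, no treatment term left 0 and 0 members in edgeR, where 2 had an unadjusted p under 0.05, the minimum of 10 counts left 1 and 1, and the filter of edgeR 2 in BT-16. Leaving out a library there left no residual degrees of freedom and was not run. Above the median of olfactory receptors were 62 members in both treated libraries, above the 95th percentile 38, and above that of 178 genes of other tissue-restricted families 23.

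For the members given with full statistics, of their log2 fold changes under the alternatives other than the subtraction, 434 kept their direction and side of the threshold, 18 lost and 4 gained a call, and 32 changed sign. All sign changes were in members without a call. With upper-quartile normalization, the log2 fold change of *EPHA2* was 0.063, *PLXNB2* 0.078, *PLXNB1* 0.34, *PLXND1* 0.28, and *SEMA3B* 0.35. When 1 library was left out, *EFNA1* ranged from -0.070 to 0.58, *NRP1* from -0.39 to 0.82, *PLXNB1* from -0.29 to 0.32, *PLXND1* from -0.23 to 0.10, and *SEMA3B* from -0.38 to 0.49. *PLXNB1* was also 0.056 in DESeq2, 0.061 in DESeq2 with the block, 0.056 with DESeq2 size factors, 0.22 with library totals, 0.17 with 10 counts, 0.020 with the filter of edgeR, 0.059 in limma, and 0.076 and 0.083 after subtraction of the olfactory receptor median (added after seeing the data) without and with the block. *PLXND1* was 0.0030 in DESeq2 with the block and in limma, 0.15 with library totals, 0.11 with 10 counts, and 0.018 and 0.027 after subtraction. *SEMA3B* was 0.048 with the block, 0.065 and 0.12 in DESeq2 without and with it, 0.065 with DESeq2 size factors, 0.23 with library totals, 0.18 with 10 counts, 0.0281 with the filter of edgeR, 0.11 in limma, and 0.080 and 0.13 after subtraction. The cause of these changes was not tested. Counts under 10 in 22 members limit the precision of their ratios, and genes without a call are not shown to be unchanged.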
